A study of Homo sapiens with 19 samples.

Results

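The ADARB1 knockdown experiment sets 3 libraries of HepaRG cells that received an siRNA against ADARB1 beside 3 libraries that received a control siRNA (siNC), and these 6 of the 19 libraries of the series were chosen by their treatment and batch labels alone. HepaRG is a human hepatic line derived from a liver tumour, whose precursor cells can be matured into hepatocyte-like and biliary-like cells in culture. All cells compared here were differentiated first and then received 1 siRNA at 20 nM with a lipid transfection reagent, the controls included; the medium was changed 24 h later and replaced by serum-free medium at 48 h. The groups of batch 1 were siADARB1 (labelled ADARB1 knockdown), siADAR (ADAR knockdown, 3 libraries) and siNC (control, a commercial negative-control siRNA). The 3 siADAR libraries served as a second knockdown in the same batch and as part of the estimate of the spread. Interferon alpha and BX795 were not given to any of these 9 libraries. The protocol names 1 siRNA per target, so effects of losing ADARB1 and effects of that siRNA's own sequence cannot be told apart. Nothing in the labels states that the 3 replicates of a group came from separate cultures; p-values therefore measure only the spread between these libraries, which may be technical. The question addressed is which genes, drug metabolism genes among them, differ when this editing enzyme is knocked down.

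ADARB1 encodes ADAR2, an enzyme that turns adenosine into inosine in double-stranded RNA. Ribosomes and reverse transcriptases read inosine as guanosine, so editing in a coding region can change an amino acid, and the best known such site lies in the neuronal glutamate receptor mRNA GRIA2. Its relative ADAR encodes ADAR1, which edits mostly repeat-derived double-stranded RNA and keeps it from triggering the interferon response, while the relative ADARB2 has no known editing activity. The values here are gene-level RNA amounts, and how far any site was edited is not given by them.

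Total counts per library were 42.7 to 64.3 M after ADARB1 siRNA, 47.7 to 56.3 M after ADAR siRNA and 45.8 to 77.1 M in siNC. Of 21747 genes tested, 3632 (16.7%) were called, meaning an adjusted p below 0.05 in edgeR's quasi-likelihood test: 1794 (8.25%) were higher and 1838 (8.45%) lower after ADARB1 siRNA than in siNC. Among the 14341 protein-coding genes tested 11.7% were higher and 11.6% lower. The median siNC level was 31.5 CPM for genes called higher, 35.1 CPM for those called lower and 4.03 CPM for those not called. List counts below are to be read beside the shares of all genes and of protein-coding genes. Most of the called changes were small. The median size of a called change was 0.26 on the log2 scale, and 3137 of the called genes (86.4%) changed by less than 1.5-fold. Only 156 genes (0.717%) were called with a change of at least 2-fold, 68 higher and 88 lower. The common coefficient of variation between replicates was 6.68%. Of 12 genes with a mean of at least 50 CPM (counts per M counts of the library) in a compared group and a called change of at least 2-fold, a set chosen after its values were seen, 8 were higher (MT1E, MT2A, CALU, TNC, CRP, MT1X, MET and PDIA4) and 4 were lower (PEG10, DLAT, HSD17B4 and MTPN). In the direct comparison of the ADARB1 siRNA with the ADAR siRNA libraries, 7768 genes (35.7%) were called, 3676 (16.9%) higher and 4092 (18.8%) lower after ADARB1 siRNA, and 792 of them by at least 2-fold. Both knockdowns share the same siNC libraries, so differences between them were tested only in this direct comparison.

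**Figure D1:**
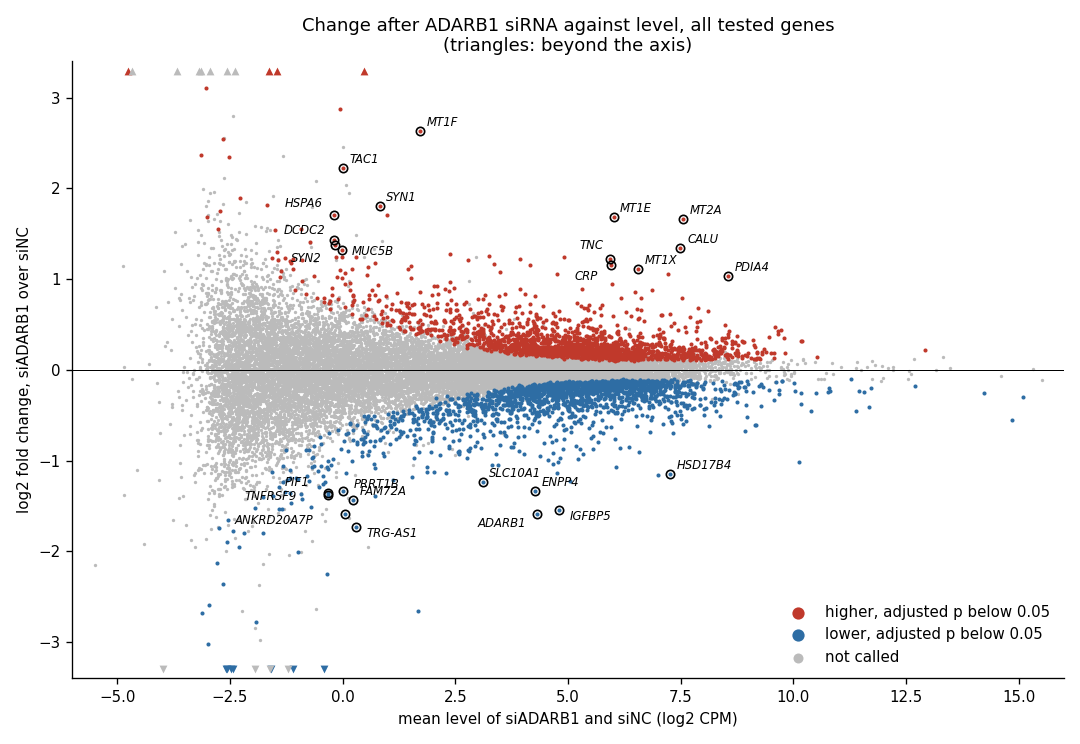
Log2 fold change of siADARB1 over siNC for each tested gene (vertical axis) against its mean level over both groups in log2 CPM (horizontal axis); red points were called higher, blue points lower and grey points were not called, and triangles lie beyond the axis. Most called genes lie close to 0, while MT1E, MT2A, CALU and PDIA4 stand out among strongly expressed genes that were higher and HSD17B4 among those that were lower.

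ADARB1 itself (ENSG00000197381.18; chromosome 21, 45074578 to 45226563 in GRCh38.p14) measured 10.1, 9.41 and 10.4 CPM after ADARB1 siRNA, 26.6, 23.2 and 24.9 CPM after ADAR siRNA and 30.8, 28.7 and 30.2 CPM in siNC. The 3 siADARB1 libraries were the lowest of the 9 and overlapped neither other group. The log2 fold change against siNC was -1.59 ± 0.06 (SE; adjusted p 8.27e-10), and against ADAR siRNA it was -1.33 ± 0.06 (adjusted p 1.14e-09). ADAR, the other editing enzyme, measured 243, 242 and 246 CPM after ADARB1 siRNA and 239, 239 and 241 CPM in siNC, a log2 fold change of 0.02 ± 0.05 that did not pass the test (adjusted p 0.806). In the siADAR libraries ADAR measured 57.7, 56 and 65.1 CPM, a level 2.03 ± 0.05 lower on the log2 scale than after ADARB1 siRNA (adjusted p 3.55e-12), and each siRNA lowered the gene it was named for. ADARB1 was also lower after ADAR siRNA than in siNC (-0.26 ± 0.06, adjusted p 0.00178). ADARB2 stood at 8.07, 6.41 and 7.32 CPM after ADARB1 siRNA and 7.12, 7.61 and 6.32 CPM in siNC, with overlapping libraries and a log2 fold change of 0.06 ± 0.10 (adjusted p 0.799). After ADAR siRNA it was at 4.57, 4.93 and 4.93 CPM, lower than in siNC (-0.54 ± 0.11, adjusted p 0.001).

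**Figure D2:**
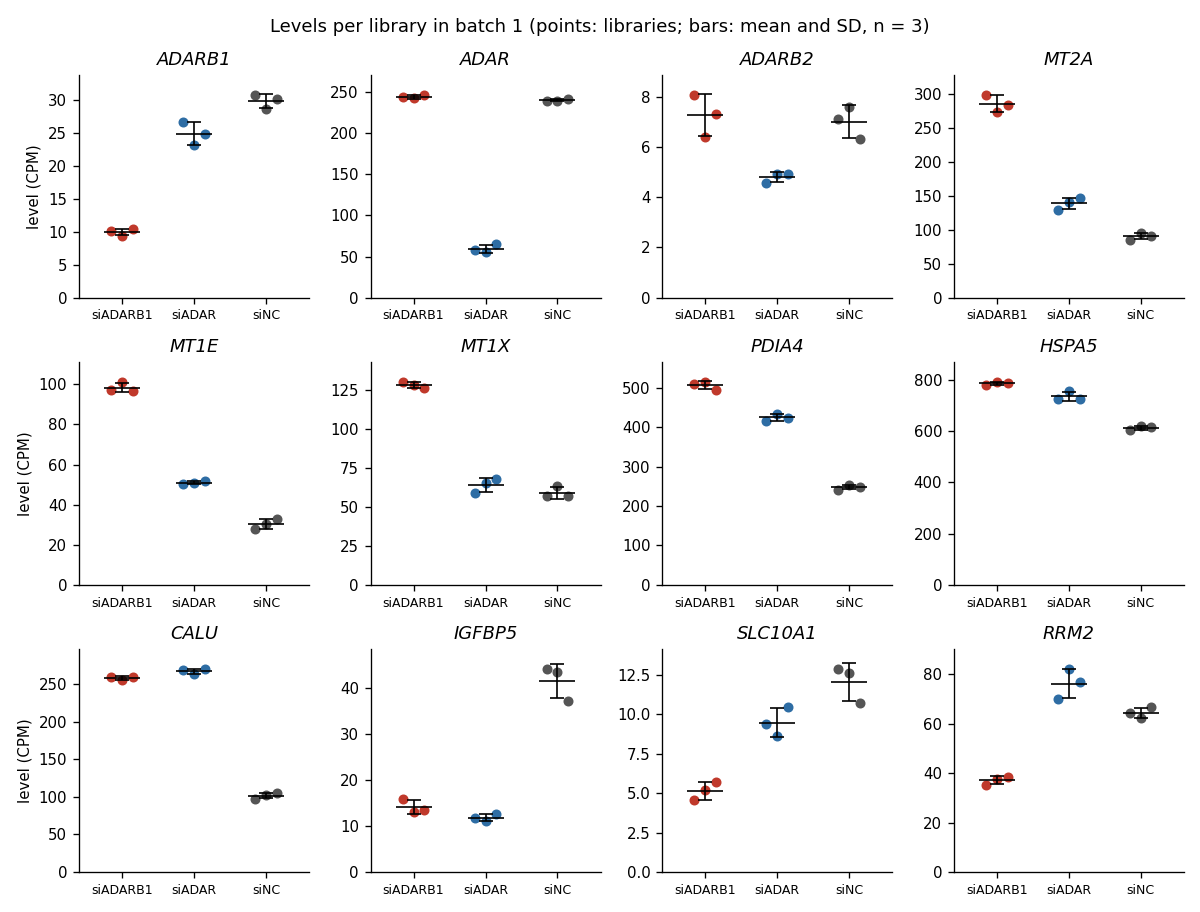
Level of 12 genes in CPM (vertical axes, starting at 0) in each library after ADARB1 siRNA (red), after ADAR siRNA (blue) and in siNC (grey), with bars for the mean and SD of 3 libraries. ADARB1 was lowest after ADARB1 siRNA, ADAR was lowest after ADAR siRNA, and MT2A, MT1E and MT1X were highest after ADARB1 siRNA.

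The metallothionein genes MT1E and MT2A showed the largest changes among the 12 strongly expressed genes with a called change of at least 2-fold. Metallothioneins are small cysteine-rich proteins that bind zinc, copper and cadmium, and their genes lie side by side on chromosome 16. Their known regulator MTF1 binds metal response elements, short motifs upstream of the gene, which is why the promoters of the strongly expressed members MT2A and MT1X are shown here as the 250 bases before the transcript start (RefSeq, GRCh38.p14; MT2A at chr16:56608334-56608583 and MT1X at chr16:56682220-56682469, both plus strand). Capitals mark each match to TGCNCNC or to its reverse complement.
MT2A: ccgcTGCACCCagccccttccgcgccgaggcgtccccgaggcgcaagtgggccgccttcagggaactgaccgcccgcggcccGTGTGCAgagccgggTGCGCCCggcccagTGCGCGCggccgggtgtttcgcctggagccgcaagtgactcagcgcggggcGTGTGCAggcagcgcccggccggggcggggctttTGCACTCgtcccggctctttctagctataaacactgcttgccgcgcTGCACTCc
MT1X: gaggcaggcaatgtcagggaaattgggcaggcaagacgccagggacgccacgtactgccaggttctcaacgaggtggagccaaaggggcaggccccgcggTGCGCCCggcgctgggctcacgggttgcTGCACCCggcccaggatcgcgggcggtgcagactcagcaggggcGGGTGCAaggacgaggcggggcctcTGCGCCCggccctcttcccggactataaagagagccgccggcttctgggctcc
The MT2A window held 7 matches and the MT1X window 4. The windows of MT1B and MT1H, genes with at most 1 count over the 6 libraries, held 5 and 8, so matches were also present where the gene was not measurably expressed. Of all 27305 promoter windows of this length, 48.38% held at least 1 match and 1.692% held 4 or more, with both strands searched and overlapping matches counted. The table of promoters had an entry for 4 of the 11 metallothionein genes listed, and none for MT1E or MT1F. A match of letters is a description, not a site.

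MT2A (chromosome 16, 56608584 to 56609497) measured 298, 273 and 283 CPM after ADARB1 siRNA, 129, 141 and 146 CPM after ADAR siRNA and 85.4, 94.4 and 90.8 CPM in siNC. Its 3 siADARB1 libraries lay above every other library, at a log2 fold change of 1.66 ± 0.05 against siNC (adjusted p 1.9e-10) and 1.04 ± 0.05 against ADAR siRNA (adjusted p 2.24e-09). MT1E (chromosome 16, 56625781 to 56627112) was at 97.2, 101 and 96.7 CPM after ADARB1 siRNA, 50.1, 50.8 and 51.7 CPM after ADAR siRNA and 28.1, 30.3 and 32.8 CPM in siNC. The order of the 3 groups was the same as for MT2A without overlap, and the log2 fold change was 1.69 ± 0.05 against siNC (adjusted p 7.91e-11) and 0.95 ± 0.05 against ADAR siRNA (adjusted p 2.24e-09). MT1X was at 129.8, 128 and 126 CPM after ADARB1 siRNA, 58.8, 65 and 67.5 CPM after ADAR siRNA and 56.7, 63.6 and 57.1 CPM in siNC. Here the siADAR and siNC libraries overlapped and the siADARB1 libraries stood alone, with a log2 fold change of 1.12 ± 0.05 against siNC (adjusted p 7.89e-09) and 1.01 ± 0.05 against ADAR siRNA (adjusted p 4.09e-09). MT1F, at 4.64, 5.0 and 7.24 CPM after ADARB1 siRNA and 0.888, 1.17 and 0.702 CPM in siNC, had the largest rise of the genes named by size, 2.63 ± 0.23 (adjusted p 2.73e-06). MT1A, at 1.66, 1.26 and 1.2 CPM after ADARB1 siRNA and 1.06, 0.858 and 0.848 CPM in siNC, did not pass (0.58 ± 0.20, adjusted p 0.063). The other 6 metallothionein genes, MT1B, MT1G, MT1H, MT1HL1, MT1L and MT1M, had too few counts to be tested. Close relatives share sequence, so the count of any single member is uncertain.

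Zinc carriers moved in both directions. SLC30A1, which exports zinc across the plasma membrane and is itself a known MTF1 target, measured 88.7, 88.1 and 83.7 CPM after ADARB1 siRNA, 148, 136 and 138 CPM after ADAR siRNA and 137, 143 and 139.6 CPM in siNC. It fell by 0.68 ± 0.04 against siNC (adjusted p 6.61e-08) and stood at -0.70 ± 0.04 relative to ADAR siRNA (adjusted p 1.13e-08). Both differences were opposite in direction to those of MT2A, MT1E and MT1X. Whether MTF1 had a part in any of these changes was not tested. SLC39A10, a zinc importer, was at 19.3, 20.3 and 19.6 CPM after ADARB1 siRNA and 33.4, 35.7 and 32.3 CPM in siNC and fell by 0.78 ± 0.05 (adjusted p 3.29e-07), and the importer SLC39A14 rose by 0.14 ± 0.03 (adjusted p 0.0124). Over the whole list of metallothioneins and zinc carriers, 5 of 11 tested members rose and 2 fell, and the median log2 fold change was 0.14, beside -0.00 over all tested genes. The summed level of the list was 1121 to 1153 CPM after ADARB1 siRNA and 813 to 857 CPM in siNC.

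Chaperones and foldases of the endoplasmic reticulum (ER), which fold and check secreted proteins, rose as 12 of 23 tested members, 1 fell, and the median log2 fold change was 0.13. Many of these genes are known targets of the unfolded protein response, whose factors ATF6 and XBP1 act through ER stress response elements. The promoters of HSPA5 (chr9:125241344-125241593, minus strand), HSP90B1 (chr12:103930160-103930409, plus strand) and PDIA4 (chr7:149028491-149028740, minus strand) are given as members of the list that rose, with and without a match to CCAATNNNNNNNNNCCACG or its reverse complement, in capitals.
HSPA5: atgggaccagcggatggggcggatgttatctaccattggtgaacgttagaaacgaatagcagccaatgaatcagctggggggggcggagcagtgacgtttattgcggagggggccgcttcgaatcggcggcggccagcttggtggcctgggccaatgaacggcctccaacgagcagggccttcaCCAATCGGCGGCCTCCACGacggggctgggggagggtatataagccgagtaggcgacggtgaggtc
HSP90B1: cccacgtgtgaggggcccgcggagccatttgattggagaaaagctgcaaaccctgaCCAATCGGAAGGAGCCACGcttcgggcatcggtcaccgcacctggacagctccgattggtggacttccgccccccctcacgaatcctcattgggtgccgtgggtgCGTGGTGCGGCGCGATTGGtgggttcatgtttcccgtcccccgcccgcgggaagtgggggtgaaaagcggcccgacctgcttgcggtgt
PDIA4: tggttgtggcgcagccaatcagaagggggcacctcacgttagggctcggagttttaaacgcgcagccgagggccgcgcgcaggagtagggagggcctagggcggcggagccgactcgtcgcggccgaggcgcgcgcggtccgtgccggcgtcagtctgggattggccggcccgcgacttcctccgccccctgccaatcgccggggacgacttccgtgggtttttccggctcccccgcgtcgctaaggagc
Of all 27305 windows, 21 (0.0769%) held the motif on either strand, and 5 of the 21 chaperone windows in the table were among them. With many known targets of that response in the list, matches were likely whatever the siRNA did. Those 5 belonged to HSPA5, HSP90B1, CALR and CRELD2, which rose, and to ERO1B, which fell. A match was held by 4 of 11 windows of members that rose and 1 of 10 of the others. Whether the element had a part in any change was not tested. The PDIA4 window, whose gene changed most within the list, held no match.

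PDIA4 (chromosome 7, 149003051 to 149028505), a disulfide isomerase, measured 511, 514 and 495 CPM after ADARB1 siRNA, 417, 434 and 424 CPM after ADAR siRNA and 242, 254 and 249 CPM in siNC. All siADARB1 libraries lay above all siADAR libraries, and those above all siNC libraries. Its log2 fold change was 1.03 ± 0.04 against siNC (adjusted p 3.03e-10) and 0.25 ± 0.04 against ADAR siRNA (adjusted p 4.9e-05). HSPA5, the main Hsp70 chaperone of the ER, was at 781, 791 and 786 CPM after ADARB1 siRNA, 725, 757 and 725 CPM after ADAR siRNA and 605, 618 and 618 CPM in siNC. The siADARB1 libraries were again above both other groups, with a smaller log2 fold change than that of PDIA4 (0.36 ± 0.03, adjusted p 4.08e-06; 0.10 ± 0.03 against ADAR siRNA, adjusted p 0.0322). CALR, a calcium-binding lectin chaperone, rose by 0.35 ± 0.04 and HSP90B1, the Hsp90 of the ER, by 0.44 ± 0.05 (adjusted p 1.48e-05 and 2.15e-05). HYOU1, PDIA6, PDIA5, PDIA3, MANF, CRELD2, DNAJC3 and CANX were the remaining members that rose, by 0.13 to 0.30 on the log2 scale. ERO1B, an oxidase that recharges disulfide isomerases, fell by 0.43 ± 0.06 (adjusted p 0.000144). Over the whole list of 23, 8 members were higher and 6 lower than after ADAR siRNA in the direct test, at a median of 0.01.

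Other lists of the secretory pathway and of ER stress also held calls. Of 15 ER stress sensors and degradation genes 2 rose (13.3%) and 1 fell (6.67%), with a median of 0.02. These shares were near the 8.25% and 8.45% of all tested genes. SEL1L, the scaffold of the HRD1 degradation complex, was at 289, 292 and 283 CPM after ADARB1 siRNA and 192, 199.6 and 203 CPM in siNC and rose by 0.54 ± 0.04 (adjusted p 3.02e-07). DERL1 rose by 0.16 ± 0.05 and the sensor gene ERN1 fell by 0.14 ± 0.04 (adjusted p 0.0339 and 0.031), 2 calls that ended when single libraries were left out. Of 22 translocation and N-glycosylation genes 4 rose and none fell, with the oligosaccharyltransferase subunit RPN1 at 0.23 ± 0.04. Of 24 genes of COPII and Golgi traffic 6 rose and 2 fell, among them KDELR3 at 0.44 ± 0.06 and the COPII GTPase SAR1B at -0.43 ± 0.04. Among 24 genes of the ATF4 and amino acid response 7 rose and 3 fell; GDF15 was at 52.6, 52.4 and 56.1 CPM after ADARB1 siRNA and 36.7, 38.3 and 42 CPM in siNC and rose by 0.46 ± 0.05 (adjusted p 2.54e-05), but stood -0.84 ± 0.05 relative to ADAR siRNA (adjusted p 1.21e-08).

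CALU (chromosome 7, 128739359 to 128773400), a calcium-binding protein of the secretory pathway, measured 259.8, 255 and 259.7 CPM after ADARB1 siRNA, 269, 263 and 269 CPM after ADAR siRNA and 97.6, 103 and 105 CPM in siNC. The siADARB1 libraries lay above all siNC libraries. The log2 fold change was 1.34 ± 0.04 against siNC (adjusted p 7.91e-11), and the difference between the knockdowns was -0.05 ± 0.04 (adjusted p 0.349). The receptor tyrosine kinase gene MET was at 200.1, 201 and 197 CPM after ADARB1 siRNA, 338, 322 and 337 CPM after ADAR siRNA and 89.5, 93.7 and 105 CPM in siNC. It rose by 1.05 ± 0.05 against siNC (adjusted p 8.02e-09) and was lower than after ADAR siRNA (-0.74 ± 0.05, adjusted p 4.61e-08).

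Of the 4 abundant genes that fell, 3 had their lowest levels of the 9 libraries in the siADARB1 group, and for PEG10 that group lay between siADAR and siNC. MTPN, which encodes the small ankyrin-repeat protein myotrophin, measured 80.5, 78.6 and 76 CPM after ADARB1 siRNA, 183, 173 and 177 CPM after ADAR siRNA and 172, 173 and 180.0 CPM in siNC. Its siADAR and siNC libraries overlapped, and its log2 fold change was -1.16 ± 0.04 against siNC and -1.18 ± 0.04 against ADAR siRNA (adjusted p 2.56e-10 and 6.3e-11). DLAT, a subunit of the pyruvate dehydrogenase complex, was at 41.7, 44.8 and 43 CPM after ADARB1 siRNA, 87.1, 88.7 and 86.5 CPM after ADAR siRNA and 88.1, 92.2 and 91.5 CPM in siNC, a fall of 1.07 ± 0.04 (adjusted p 3.03e-10; -1.02 ± 0.04 against ADAR siRNA, adjusted p 1.66e-10). HSD17B4, a peroxisomal enzyme of bile acid and fatty acid chain shortening, was at 95.2, 96 and 93.3 CPM after ADARB1 siRNA, 170.1, 161 and 174 CPM after ADAR siRNA and 212, 210.4 and 208 CPM in siNC, without overlap between any pair of groups. It fell by 1.15 ± 0.04 against siNC (adjusted p 2.06e-10) and stood at -0.83 ± 0.04 relative to ADAR siRNA (adjusted p 9.51e-10). PEG10, an imprinted gene of retrotransposon origin, was at 749, 746 and 738 CPM after ADARB1 siRNA, 592, 565 and 554 CPM after ADAR siRNA and 1441, 1486 and 1584 CPM in siNC. Its siADARB1 libraries were below siNC and above the siADAR libraries (0.38 ± 0.04, adjusted p 3.06e-06).

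Among genes with lower levels, the rises of largest size included genes of the nervous system. TAC1, the precursor of substance P, was at 1.78, 1.64 and 1.57 CPM after ADARB1 siRNA and 0.418, 0.294 and 0.344 CPM in siNC (2.23 ± 0.24, adjusted p 1.8e-05). SYN1, a synaptic vesicle protein gene, was at 2.68, 2.76 and 2.81 CPM after ADARB1 siRNA and 0.783, 0.677 and 0.874 CPM in siNC (1.80 ± 0.18, adjusted p 9.39e-06). Both were also above the siADAR libraries, by 1.31 ± 0.23 for TAC1 and 1.30 ± 0.17 for SYN1. SYN2, DCDC2 and the mucin gene MUC5B rose by 1.37 ± 0.22, 1.43 ± 0.21 and 1.32 ± 0.28, at means under 1.5 CPM. In the direct test SYN2 was lower than after ADAR siRNA (-0.58 ± 0.20, adjusted p 0.0344), opposite to TAC1 and SYN1. HSPA6, an inducible Hsp70 gene, was at 1.57, 1.46 and 0.938 CPM after ADARB1 siRNA and 0.505, 0.70 and 0.0927 CPM in siNC, a wide spread in both groups, and its call (1.71 ± 0.43, adjusted p 0.0141) ended without siADARB1 replicate 1.

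IGFBP5 (chromosome 2, 216672105 to 216695549), a binding protein of insulin-like growth factors, was at 16, 13 and 13.6 CPM after ADARB1 siRNA, 11.7, 11.1 and 12.8 CPM after ADAR siRNA and 44.1, 43.5 and 37.3 CPM in siNC. Its siADARB1 libraries lay below all siNC libraries (-1.54 ± 0.08, adjusted p 1.99e-08), and it was higher than after ADAR siRNA in the direct test (0.26 ± 0.09, adjusted p 0.0304). ENPP4, an ecto-enzyme that cleaves nucleotides, was at 10.6, 12.8 and 9.26 CPM after ADARB1 siRNA, 32.5, 28.4 and 29.8 CPM after ADAR siRNA and 27.2, 28.8 and 26.9 CPM in siNC. It was low after ADARB1 siRNA and overlapped between the other groups (-1.33 ± 0.09 against siNC, -1.46 ± 0.09 against ADAR siRNA). TNFRSF9, a T cell costimulatory receptor gene, was at 0.442, 0.398 and 0.492 CPM after ADARB1 siRNA and 1.1, 1.08 and 1.26 CPM in siNC (-1.38 ± 0.19), and the DNA helicase gene PIF1 fell by 1.36 ± 0.23. PRRT1B fell by 1.34 ± 0.25. The falls of FAM72A (1.44 ± 0.31), of the pseudogene ANKRD20A7P (1.59 ± 0.27) and of the antisense gene TRG-AS1 (1.73 ± 0.22) concern genes with near-identical copies or an overlapping partner, so the counts of each are uncertain.

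Hepatocyte genes were lower after ADARB1 siRNA across most liver lists. Of 30 hepatocyte markers, all of which were tested, 21 fell and 1 rose, and the median log2 fold change over the list was -0.31. Of 42 phase I drug enzymes 26 fell and 2 rose (median -0.26), of 38 phase II enzymes 15 fell and 4 rose (median -0.15), and of 24 drug and bile transporters 15 fell and 1 rose (median -0.26). The summed level of the hepatocyte markers was 61923 to 65373 CPM after ADARB1 siRNA and 71049 to 76587 CPM in siNC, and in bulk RNA fewer cells of a type and less RNA per cell cannot be told apart. Against ADAR siRNA, 14 hepatocyte markers were higher and 5 lower after ADARB1 siRNA. In the same direct test 17 phase I enzymes were higher and 12 lower, at a median of 0.09. Phase II enzymes were higher in 11 cases and lower in 12 (median -0.01), and transporters higher in 11 and lower in 8 (median 0.14).

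ALB, serum albumin, measured 30291, 32894 and 31617 CPM after ADARB1 siRNA and 38233, 40004 and 38291 CPM in siNC. The groups did not overlap, and the fall was 0.30 ± 0.03 (adjusted p 9.94e-06). CYP2E1, which oxidizes ethanol and acetaminophen, was at 41.8, 40.8 and 43.9 CPM after ADARB1 siRNA, 84.3, 86.7 and 87.1 CPM after ADAR siRNA and 67.4, 70.2 and 66.6 CPM in siNC. It was lowest after ADARB1 siRNA and highest after ADAR siRNA, with -0.69 ± 0.04 against siNC and -1.03 ± 0.04 against ADAR siRNA (adjusted p 3.18e-08 and 1.76e-10). CPS1, the entry enzyme of the urea cycle, was at 459.8, 467 and 453 CPM after ADARB1 siRNA, 299, 291 and 297 CPM after ADAR siRNA and 701, 756 and 645 CPM in siNC. It fell by 0.61 ± 0.05 against siNC (adjusted p 1.11e-06) but stood above the siADAR libraries (0.64 ± 0.05, adjusted p 1.38e-07). CYP3A4, which oxidizes many drugs, was at 157, 161 and 160.1 CPM after ADARB1 siRNA, 972, 935 and 1025 CPM after ADAR siRNA and 209.7, 216 and 192 CPM in siNC. The fall after ADARB1 siRNA was 0.37 ± 0.05 (adjusted p 8.51e-05), and the difference from ADAR siRNA was -2.62 ± 0.05 (adjusted p 4.49e-13).

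**Figure D3:**
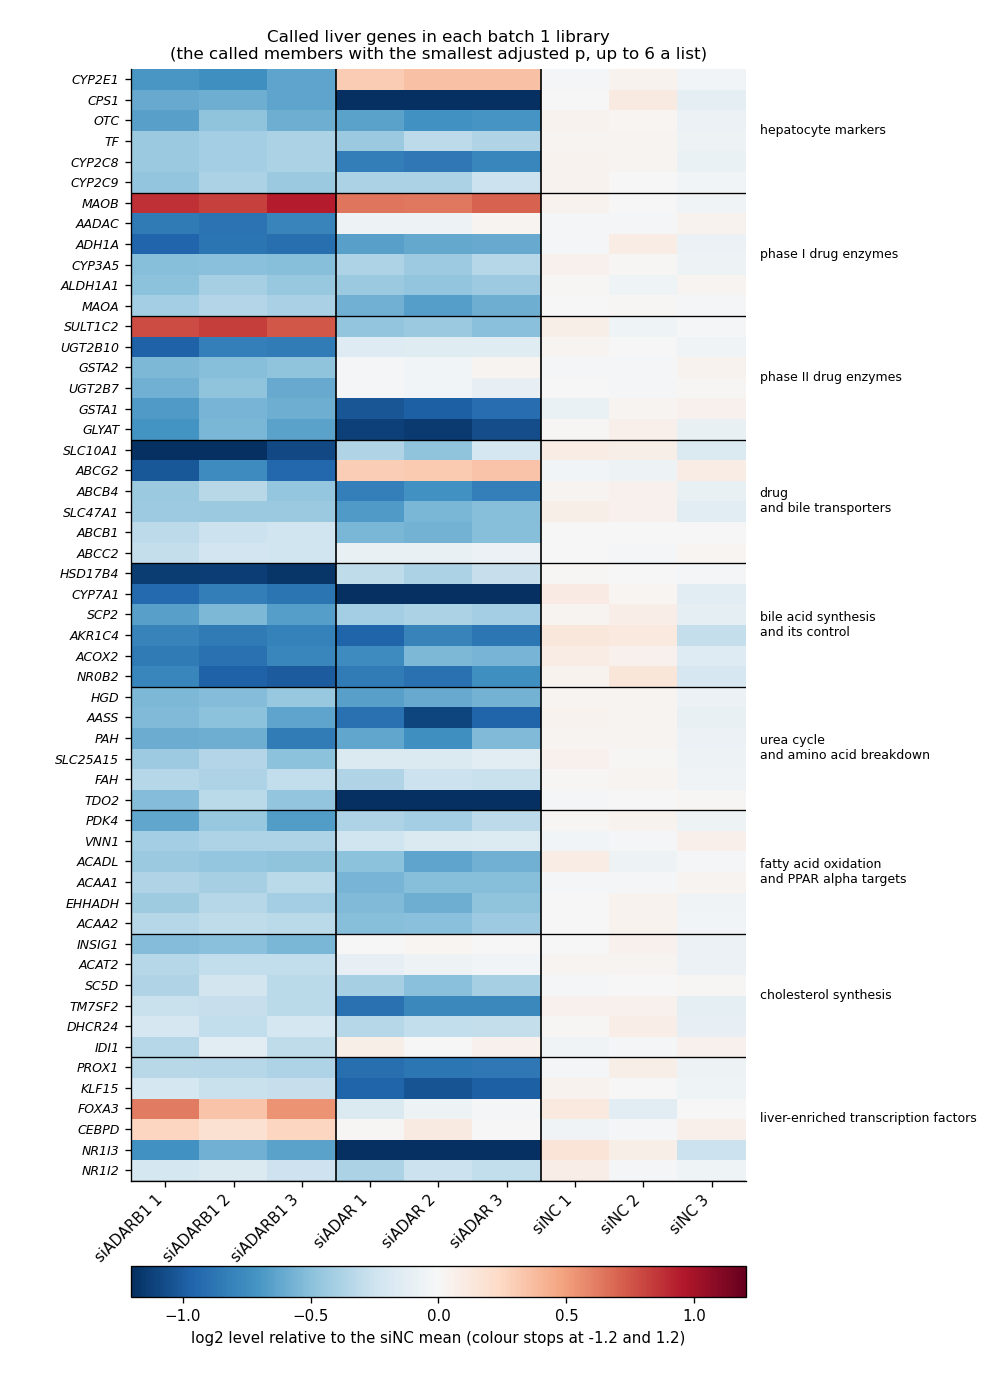
Level of called liver genes in each batch 1 library as a log2 ratio to the siNC mean (colour; blue is lower, red higher, and colour stops at -1.2 and 1.2), with libraries in columns and up to 6 genes of smallest adjusted p per list in rows. The siADARB1 columns are blue for most genes and red for MAOB, SULT1C2, FOXA3 and CEBPD, and rows such as CYP2E1 and ABCG2 differ in colour between the siADARB1 and siADAR columns.

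Within phase I, AADAC, an esterase that hydrolyses drugs, was at 58.2, 56.6 and 60.5 CPM after ADARB1 siRNA, 100.5, 100.3 and 107 CPM after ADAR siRNA and 104, 103 and 108 CPM in siNC. Only the siADARB1 group was low (-0.85 ± 0.04 against siNC, -0.81 ± 0.04 against ADAR siRNA, adjusted p 7.89e-09 and 2.07e-09). ADH1A, an alcohol dehydrogenase, was at 64, 67.7 and 66.5 CPM after ADARB1 siRNA and 123, 132 and 118 CPM in siNC and fell by 0.91 ± 0.04. MAOB, a monoamine oxidase of the mitochondrial outer membrane, went the other way, at 151, 146 and 158 CPM after ADARB1 siRNA and 84.7, 82.2 and 80.1 CPM in siNC (0.88 ± 0.04, adjusted p 6.51e-09). Within phase II, the sulfotransferase gene SULT1C2 was at 125, 129 and 121 CPM after ADARB1 siRNA, 52.4, 53.1 and 51.2 CPM after ADAR siRNA and 75.9, 69.9 and 71.7 CPM in siNC. It rose by 0.79 ± 0.04 against siNC and was 1.26 ± 0.04 above ADAR siRNA (adjusted p 1.36e-08 and 4.45e-11). UGT2B10, a glucuronosyltransferase, and GSTA2, a glutathione transferase, fell by 0.87 ± 0.05 and 0.51 ± 0.04, though members of the CYP2C, CYP3A, UGT2B and GSTA families share sequence and single members are uncertain to that extent.

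Among transporters, SLC10A1, the sodium-dependent importer of bile acids, was at 4.57, 5.18 and 5.7 CPM after ADARB1 siRNA, 9.37, 8.64 and 10.4 CPM after ADAR siRNA and 12.8, 12.6 and 10.7 CPM in siNC. The siADARB1 libraries were the lowest of the 9 (-1.23 ± 0.10 against siNC, -0.89 ± 0.11 against ADAR siRNA, adjusted p 2.29e-06 and 1.26e-05). ABCG2, an efflux pump for drugs and urate, was at 3.84, 4.62 and 4.06 CPM after ADARB1 siRNA, 9.53, 9.67 and 9.88 CPM after ADAR siRNA and 7.59, 7.47 and 8.25 CPM in siNC, a fall of 0.90 ± 0.09 against siNC and a difference of -1.22 ± 0.09 from ADAR siRNA. ABCB4, which moves phospholipid into bile, fell by 0.41 ± 0.05 (adjusted p 4.04e-05). Of 20 genes of bile acid synthesis and its control 12 fell and 1 rose (median -0.31), and 6 were higher and 2 lower than after ADAR siRNA. CYP7A1, the rate-limiting enzyme of that pathway, was at 31.8, 34.2 and 33.1 CPM after ADARB1 siRNA, 23.8, 24.4 and 23.4 CPM after ADAR siRNA and 64.8, 61.6 and 55.5 CPM in siNC (-0.87 ± 0.05 against siNC, adjusted p 8.41e-08; 0.47 ± 0.06 against ADAR siRNA, adjusted p 1.26e-05). SCP2, a peroxisomal sterol carrier and thiolase, fell by 0.62 ± 0.05.

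Amino acid, fat and sterol metabolism followed the same direction. Of 32 genes of the urea cycle and amino acid breakdown 22 fell and 2 rose (median -0.32); OTC, the second enzyme of the cycle, was at 26.7, 30.1 and 28 CPM after ADARB1 siRNA and 43.4, 42.8 and 40.1 CPM in siNC (-0.57 ± 0.05), and HGD of tyrosine breakdown fell by 0.50 ± 0.04. Of 28 genes of fatty acid oxidation and PPAR alpha targets 19 fell and 1 rose (median -0.22). PDK4, a kinase that blocks pyruvate oxidation, was at 36.6, 40.9 and 35.2 CPM after ADARB1 siRNA and 56.8, 57.9 and 53.8 CPM in siNC (-0.58 ± 0.05), and VNN1 and ACADL fell by 0.38 ± 0.04 and 0.47 ± 0.05. Of 28 genes of fatty acid and triglyceride synthesis 13 fell and 3 rose (median -0.12), with LPIN2, ACSL4 and FADS1 falling by 0.38 ± 0.04, 0.38 ± 0.04 and 0.31 ± 0.04. Of 26 cholesterol synthesis genes 9 fell and 1 rose (median -0.07); INSIG1, which holds the sterol sensor in the ER, was at 409, 415 and 401 CPM after ADARB1 siRNA, 591, 597 and 588 CPM after ADAR siRNA and 591, 610.1 and 560.3 CPM in siNC. It fell by 0.52 ± 0.04 against siNC and stood at -0.53 ± 0.04 relative to ADAR siRNA (adjusted p 5.76e-08). Of 27 liver-enriched transcription factors 8 fell and 2 rose (median -0.07): the orphan receptor gene NR0B2, a repressor of bile acid synthesis, fell by 0.90 ± 0.12, PROX1 by 0.35 ± 0.04 and KLF15 by 0.25 ± 0.04. Relative to ADAR siRNA, 20 of these factors were higher and 2 lower. In the same test 17 urea cycle and amino acid genes were higher and 2 lower, and 10 fatty acid oxidation genes higher and 5 lower. Fatty acid and triglyceride synthesis had 13 higher and 10 lower, and cholesterol synthesis 6 higher and 11 lower.

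Secreted plasma proteins did not share 1 direction. Of 20 acute-phase genes 4 rose and 3 fell (median 0.02). CRP, an acute-phase pentraxin, was at 84.1, 87.9 and 86 CPM after ADARB1 siRNA, 30.5, 34.6 and 32.7 CPM after ADAR siRNA and 39.5, 41.2 and 35.3 CPM in siNC, and only the siADARB1 group was high (1.16 ± 0.06 against siNC, 1.40 ± 0.06 against ADAR siRNA, adjusted p 7.89e-09 and 3.69e-10). SERPINA3, a protease inhibitor, rose by 0.39 ± 0.06 and TF, the iron carrier transferrin, fell by 0.41 ± 0.04. Of 29 complement genes 3 rose (10.3%) and 4 fell (13.8%), beside 8.25% and 8.45% of all tested genes. C1R was at 0.24 ± 0.05, C8A at -0.22 ± 0.04 and C4BPB at -0.21 ± 0.04. Of the 29 complement genes 22 were higher than after ADAR siRNA and 1 lower. Of 24 coagulation genes 4 rose and 6 fell, among them F9 at 0.42 ± 0.06 and KNG1 at -0.34 ± 0.04. Of 23 apolipoprotein and lipoprotein assembly genes 1 rose and 5 fell, with LIPC at -0.54 ± 0.09 and APOC3 at -0.38 ± 0.06.

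Cytosolic ribosomal protein genes were the list with the largest share that rose: 23 of 29 rose and none fell, each by little (median 0.18, range 0.08 to 0.29). RPL7A was at 476, 469 and 479.9 CPM after ADARB1 siRNA, 447, 460.1 and 469 CPM after ADAR siRNA and 385, 396 and 399.5 CPM in siNC, a rise of 0.27 ± 0.03 against siNC (adjusted p 7.24e-05) and 0.05 ± 0.03 against ADAR siRNA, which did not pass (adjusted p 0.288). RPS3 and RPSA rose by 0.27 ± 0.03 and 0.25 ± 0.04. The summed level of the list was 9700 to 10189 CPM after ADARB1 siRNA and 8542 to 8979 CPM in siNC. The count fell to 16 without siNC replicate 1 and to 2 in a fit to all 19 libraries. Against ADAR siRNA, 14 of the 29 were higher and none lower. Of 18 snoRNA host genes, many of which carry the terminal oligopyrimidine start of ribosomal protein mRNAs, 3 rose and none fell, with SNHG16 at 156, 147 and 146 CPM after ADARB1 siRNA and 109, 114 and 107 CPM in siNC (0.45 ± 0.04).

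**Figure D4:**
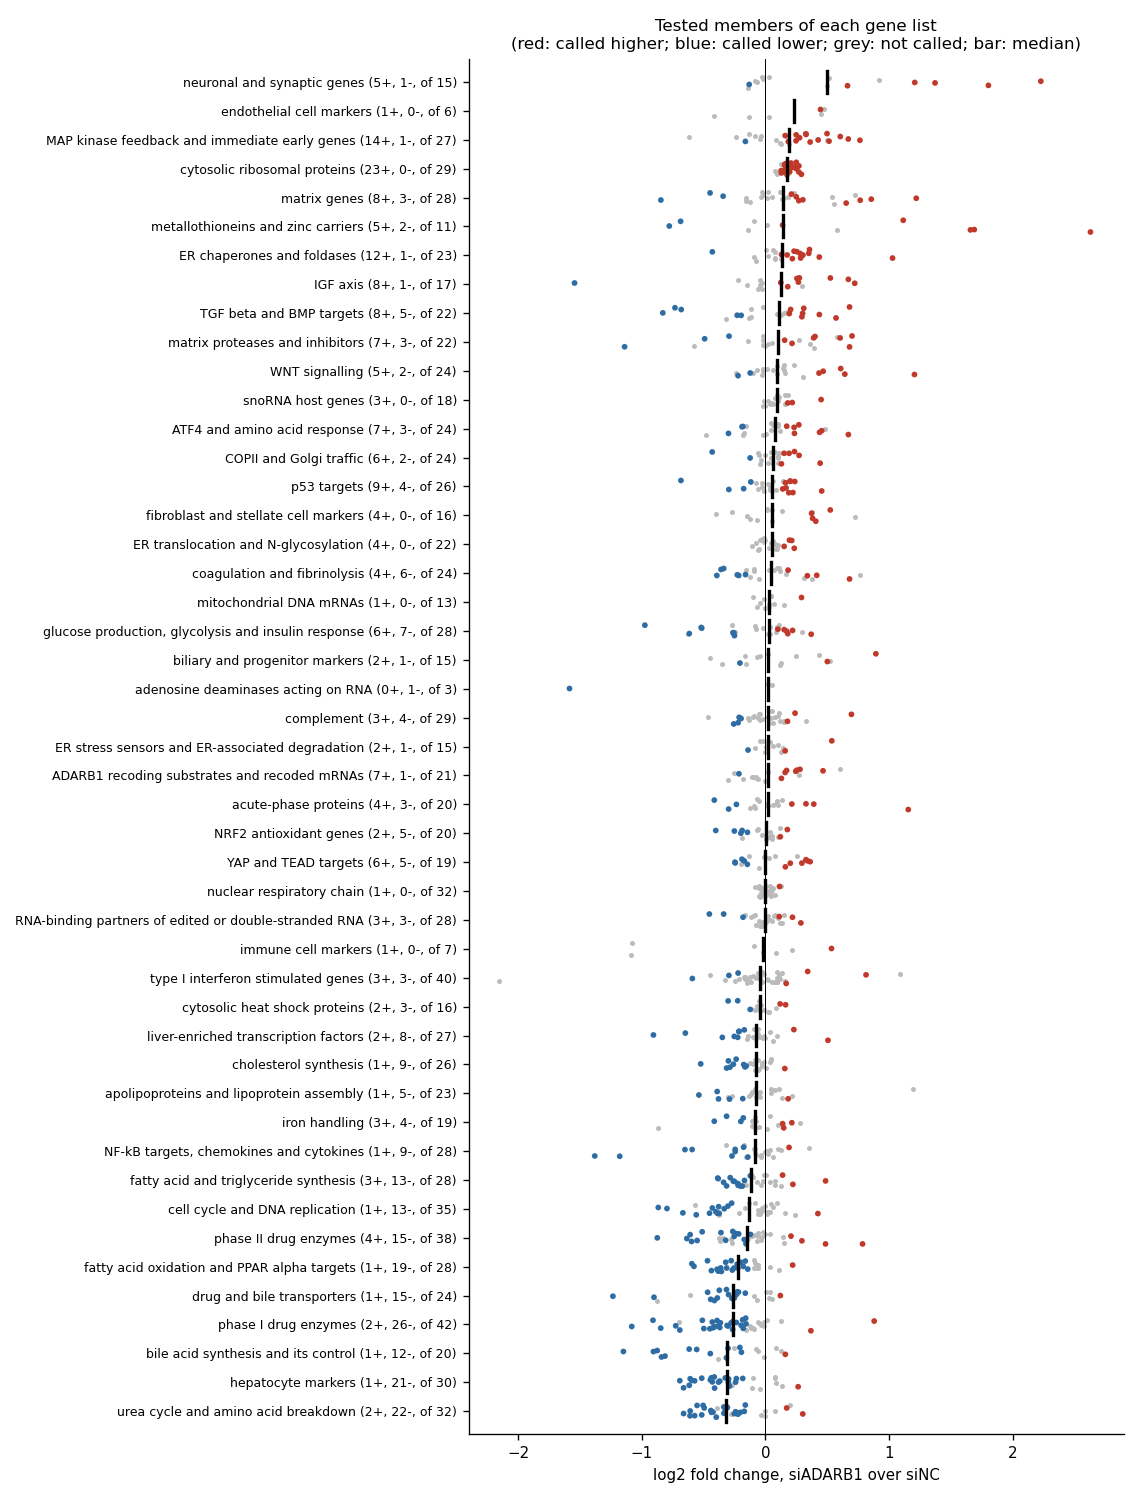
Log2 fold change of siADARB1 over siNC (horizontal axis) for the tested members of 47 gene lists (rows, in order of their median, which is the black bar); red points were called higher, blue lower and grey not called, and row labels give these counts. Liver lists lie at the bottom with medians down to -0.32, and ribosomal protein genes form a narrow group with a median of 0.18.

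Of 27 genes that answer the MAP kinase pathway 14 rose and 1 fell (median 0.19). In the direct test 8 of the 27 were higher and 6 lower than after ADAR siRNA, at a median of -0.0026. EGR1, an immediate early transcription factor, was at 80.8, 77.3 and 78.2 CPM after ADARB1 siRNA, 47.7, 48.6 and 45.9 CPM after ADAR siRNA and 56.3, 56.9 and 62.3 CPM in siNC. It was above both other groups without overlap (0.43 ± 0.04 against siNC, 0.73 ± 0.04 against ADAR siRNA, adjusted p 1e-05 and 1.22e-08). The pathway inhibitors SPRED2 and DUSP4 rose by 0.33 ± 0.05 and 0.61 ± 0.09. Of 17 genes of the IGF axis 8 rose and 1 fell, the fall being IGFBP5, while IGFBP3 was at 29.9, 30.5 and 29.3 CPM after ADARB1 siRNA and 21, 20.2 and 21 CPM in siNC (0.53 ± 0.05) and the imprinted RNA H19 rose by 0.72 ± 0.07.

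Of 28 matrix genes 8 rose and 3 fell (median 0.14). TNC, the matrix glycoprotein tenascin C, was at 83.2, 85.6 and 86.2 CPM after ADARB1 siRNA, 61.6, 75.2 and 74.5 CPM after ADAR siRNA and 35.8, 35.9 and 37.6 CPM in siNC (1.22 ± 0.06 against siNC, adjusted p 1.37e-08). Its siADARB1 libraries were also above the siADAR libraries (0.27 ± 0.06, adjusted p 0.00234). FBN1 and VCAN rose by 0.65 ± 0.04 and 0.86 ± 0.06, and neither differed past the threshold from ADAR siRNA (-0.02 ± 0.04 and 0.06 ± 0.06). Of 22 matrix proteases and inhibitors 7 rose and 3 fell, and the stromelysin MMP3, at 3.09, 3.12 and 3.02 CPM after ADARB1 siRNA and 7.12, 6.55 and 6.67 CPM in siNC, fell by 1.14 ± 0.08. Of 22 TGF beta and BMP targets 8 rose and 5 fell. The BMP targets ID1, at 12.3, 11.7 and 12.6 CPM after ADARB1 siRNA, 23.9, 23.3 and 23.8 CPM after ADAR siRNA and 19.1, 19.1 and 22.2 CPM in siNC, and ID3 fell by 0.73 ± 0.06 and 0.83 ± 0.07, and ID1 stood at -0.96 ± 0.06 relative to ADAR siRNA (adjusted p 3.92e-08). Of 24 WNT genes 5 rose and 2 fell, with the ligand WNT5A at 0.64 ± 0.05, the antagonist SFRP1 at 1.21 ± 0.13 and the antagonist DKK1 at 0.43 ± 0.06. Of 19 YAP and TEAD targets 6 rose and 5 fell, with CCN2 at 0.30 ± 0.04.

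Type I interferon stimulated genes changed in few cases after ADARB1 siRNA: 3 of 40 rose and 3 fell, a share of 7.5% each way beside 8.25% and 8.45% of all genes, and the median was -0.04. Leaving out 1 library left 1 to 3 rises, and no fall in 5 of the 6 fits. IFITM3, which blocks virus entry, was at 322, 322 and 327 CPM after ADARB1 siRNA and 244, 279 and 243 CPM in siNC (0.34 ± 0.06, adjusted p 0.000971). IFI44L was at 2.07, 2.42 and 3.0 CPM after ADARB1 siRNA, 22.3, 26.7 and 36.2 CPM after ADAR siRNA and 1.18, 1.74 and 1.34 CPM in siNC. Its rise after ADARB1 siRNA (0.81 ± 0.23, adjusted p 0.0232) ended without any 1 of siADARB1 replicates 2 and 3 and siNC replicates 1 and 3, and the fall of IFIT5 (-0.22 ± 0.06) ended in 5 of the 6 leave-one-out fits. IFI44L stood at -3.53 ± 0.18 relative to ADAR siRNA (adjusted p 2.48e-09). Tested directly, 38 of the 40 were lower after ADARB1 siRNA than after ADAR siRNA, at a median of -1.72. Of 28 NF-kB targets, chemokines and cytokines 9 fell and 1 rose (median -0.08). The chemokine gene CCL2 was at 5.66, 5.5 and 5.74 CPM after ADARB1 siRNA, 34.9, 36.3 and 38.4 CPM after ADAR siRNA and 8.18, 8.22 and 8.96 CPM in siNC (-0.59 ± 0.07 against siNC, -2.70 ± 0.06 against ADAR siRNA), and NFKBIZ fell by 0.27 ± 0.04.

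Of 35 cell cycle and replication genes 13 fell and 1 rose (median -0.13). RRM2, a ribonucleotide reductase subunit, was at 35.4, 37.7 and 38.3 CPM after ADARB1 siRNA, 69.9, 81.9 and 76.9 CPM after ADAR siRNA and 64.1, 62.2 and 66.6 CPM in siNC. The siADARB1 libraries were the lowest of the 9 (-0.80 ± 0.05 against siNC, -1.04 ± 0.05 against ADAR siRNA, adjusted p 2.68e-07 and 3.88e-09). The mitotic kinase gene PLK1 fell by 0.87 ± 0.11 and the cyclin gene CCNA2 by 0.56 ± 0.08. Against ADAR siRNA 32 of the 35 genes were lower. Of 16 cytosolic heat shock protein genes 2 rose and 3 fell, with CRYAB at -0.30 ± 0.05 and HSPA4 at -0.22 ± 0.04. Of 20 NRF2 antioxidant genes 2 rose and 5 fell, with AKR1C1 at 537, 521 and 546 CPM after ADARB1 siRNA and 709, 683 and 726 CPM in siNC (-0.40 ± 0.04).

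Messenger RNAs that carry known recoding sites of ADARB1 or its relatives were called higher in 7 of 21 tested cases, and 1 fell. The share higher was 33.3%, beside 8.25% of all genes and 11.7% of protein-coding genes. The median of the list was 0.02, and the rises numbered 1 in a fit to all 19 libraries and 1 with a minimum change of 1.2-fold. Tested directly, 3 of the 21 were higher and 6 lower after ADARB1 siRNA than after ADAR siRNA. FLNA, an actin crosslinker with an ADARB1 site, was at 283, 261 and 269.7 CPM after ADARB1 siRNA, 254, 288 and 256 CPM after ADAR siRNA and 185, 204 and 199 CPM in siNC (0.47 ± 0.05 against siNC, 0.03 ± 0.05 against ADAR siRNA). The siADARB1 and siADAR levels overlapped, and the siADARB1 libraries lay above siNC. IGFBP7, COG3, COPA and CYFIP2 rose by 0.26 ± 0.04, 0.17 ± 0.04, 0.13 ± 0.04 and 0.25 ± 0.06, and AZIN1, an inhibitor of ornithine decarboxylase antizyme, fell by 0.21 ± 0.04. GRIA2, the neuronal substrate, was barely expressed at 1.28, 1.41 and 1.27 CPM after ADARB1 siRNA and 0.749, 0.926 and 0.927 CPM in siNC and did not pass (0.60 ± 0.22, adjusted p 0.0852). BLCAP, NEIL1, TMEM63B and CDK13 did not pass either, at -0.07 ± 0.05, -0.08 ± 0.10, -0.00 ± 0.04 and -0.10 ± 0.04. Of 28 genes for proteins that bind edited or double-stranded RNA 3 rose and 3 fell. That is 10.7% each way, near the 8.25% and 8.45% of all tested genes. The helicase DHX9 was at 0.29 ± 0.04 and the stabilizing protein ELAVL1 at -0.34 ± 0.04.

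Marker lists of other cell types were mixed in level and in change. Of 32 neuronal and synaptic genes 15 were tested, 5 rose and 1 fell, and 7, among them STMN2, ELAVL4 and UCHL1, had no count in the 6 libraries. Their summed level was 608 to 618 CPM after ADARB1 siRNA and 649 to 666 CPM in siNC, most of it MAP2, at 419.9, 431 and 418 CPM after ADARB1 siRNA and 460.4, 458 and 471 CPM in siNC (-0.13 ± 0.04). The sum was lower after ADARB1 siRNA, while the 5 members that rose, TAC1, SYN1, SYN2, SCG2 and TUBB3, were all under 3 CPM. The median log2 fold change was 0.50 over the 15 tested members. With no filter on low counts it was 0.02 over 30. Those 30 include members with no count in the 6 libraries, for which no change was measured, so their median cannot be set against 0.50. Biliary and progenitor markers summed to 632 to 642 CPM after ADARB1 siRNA and 571 to 625 CPM in siNC. Of 15 tested, 2 rose and 1 fell, 12 were not called, and the median log2 fold change was 0.03. SPP1, secreted osteopontin, was at 50.3, 53.6 and 50.7 CPM after ADARB1 siRNA and 28.3, 26.1 and 28.6 CPM in siNC (0.89 ± 0.05). ITGB4 rose by 0.50 ± 0.08, and SOX9 fell by 0.21 ± 0.06. Fibroblast and stellate markers summed to 190 to 194 CPM after ADARB1 siRNA and 166 to 178 CPM in siNC, and 4 of 16 rose, PDGFRB by 0.38 ± 0.06 and ACTA2 by 0.37 ± 0.06 among them. Endothelial markers summed to 197 to 207 CPM after ADARB1 siRNA and 141 to 155 CPM in siNC, without overlap and nearly all of it KDR (0.44 ± 0.06), while CLDN5 and CLEC4G had no count. Immune markers summed to 58.5 to 63.4 CPM after ADARB1 siRNA and 52.6 to 61.0 CPM in siNC, with CD14 at 0.54 ± 0.11 and no count for CD8A, MS4A1 or NKG7. The part of these shifts in the liver and matrix results was not tested.

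The direction of a call also differed with base composition. Genes called higher had a median transcript GC content of 52.8% and genes called lower 44.3%, beside 47.9% over all tested genes. The mean log2 deviation of genes above 60% GC minus that of genes below 40% was 0.095, -0.022 and 0.11 in siADARB1 replicates 1, 2 and 3, -0.054, 0.040 and 0.0055 in the siADAR libraries and -0.040, -0.089 and -0.049 in the siNC libraries. siADARB1 replicate 2 lay near siNC replicate 1 and within the siADAR range, apart from the other two of its group. With the genes cut into 10 bins by GC content, in the lowest bin the median log2 fold change was -0.06, with 80 genes higher and 266 lower, and in the highest bin it was 0.08, with 305 higher and 67 lower. A correction for GC content brought the medians of all 10 bins to between -0.01 and 0.01 and the calls at those ends to 175 higher and 183 lower and to 152 higher and 166 lower. After the correction 13 of 23 chaperones rose, 21 of 29 ribosomal protein genes rose, and 22 of 30 hepatocyte markers fell. Other lists moved more: rises numbered 11 in place of 6 of 24 for COPII and Golgi traffic, 7 in place of 4 of 22 for translocation and N-glycosylation and 5 in place of 3 of 29 for complement, and falls 6 in place of 3 of 16 for cytosolic heat shock genes and 1 in place of 3 of 40 for interferon stimulated genes.

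**Figure D5:**
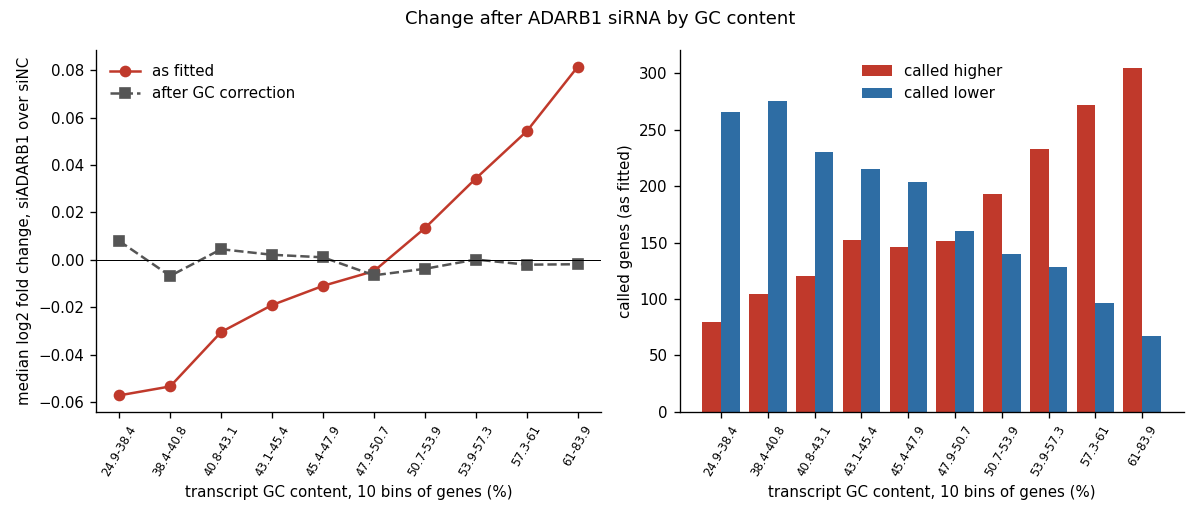
Left, median log2 fold change of siADARB1 over siNC (vertical axis) in 10 bins of genes by transcript GC content (horizontal axis), as fitted (red) and after GC correction (grey). Right, number of genes called higher (red) and lower (blue) in the same bins as fitted; the red bars grow and the blue bars shrink with GC content.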

How the data were processed

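The authors deposited 1 table of expected counts (estimated counts per gene) made with STAR and Salmon on GRCh38.p14, per the submitters' processing notes, with no scaling between libraries. For versions, settings and annotation the sources used here give nothing. The kit was directional per the labels' protocols. Whole numbers, to within 0.005, made up 94.82% of the values, and rounding moved none by more than 0.5. Symbols matched 61463 of 78894 genes. Transcript length and GC content came from GENCODE, and positions and promoters from RefSeq.

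The 9 batch 1 libraries were fitted with edgeR 4.0.16 (R 4.3.3): TMM scaling, filterByExpr, 1 mean per group with 6 residual degrees of freedom, quasi-likelihood F tests, and Benjamini-Hochberg adjustment over 21747 tested genes, called below 0.05. Levels are TMM-scaled CPM, comparable between libraries and not between genes of different length. The test was also run on simulated counts drawn without a GC trend, and the outcome is not reported here. That run cannot show how the test behaves with the GC trend of these data. Replicates of a group differed by more than counting noise (chi-square per gene 7.89 to 19.1).

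The comparison and the 47 gene lists were chosen with earlier results of these data known. Named genes were the 3 adenosine deaminases, the 3 members of smallest p in each list, all tested metallothioneins, and 11 recoded mRNAs. Added to them were the 10 largest rises and 10 largest falls of called genes with a mean of at least 1 CPM and no overlap. Genes under clone-based, identifier or readthrough names were left out of those rises and falls. Some genes that fall under these rules are not reported here. Other genes named were chosen after their values were seen, among them the 12 strongly expressed ones, ALB, CYP3A4, the zinc carriers and further chaperones. Alternatives were DESeq2 1.42.0, other scaling and filters, a minimum change of 1.2-fold, GC correction, a replicate block, other sets of libraries and, chosen after seeing the data, robust spread estimates.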

Additional observations from a re-analysis of the deposited data

How the results depend on the processing

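Of the 3632 genes called between ADARB1 siRNA and siNC, and the 7768 between ADARB1 siRNA and ADAR siRNA, the count moved most with a minimum change of 1.2-fold (526 and 2711) and in a fit to all 19 libraries (1066 and 4518), where batch 2 enters the estimate of the spread. Under the other alternatives the counts were 3395 to 4006 and 7576 to 7982. With DESeq2 they were 3858 and 7618. Leaving out 1 library at a time gave 2659 (without siNC replicate 1) to 3190 (without siADARB1 replicate 2) and 6675 (without siADARB1 replicate 1) to 7175 (without siADARB1 replicate 2). With the replicate number as a block (replicate block) they were 3437 and 7576, and with the block and a GC correction 3549 and 7836. Same-numbered siADARB1 and siNC libraries did not deviate together (correlations of 0.04, -0.02 and -0.03). Each siADARB1 library correlated best with an siNC library of another number. For siADAR and siNC the correlations were 0.06, 0.11 and 0.03, and for siADARB1 and siADAR 0.08, -0.08 and -0.05. With 3 libraries a group these values cannot show whether same-numbered libraries were paired. Of the 147 genes named by rule, no called one changed direction under any alternative run; ADARB2 (-0.03 to 0.14) and TMEM63B (-0.05 to 0.03), which were not called, crossed 0. Genes named outside the rule were not compared across settings one by one. Under the minimum change of 1.2-fold 61 of these 147 genes lost their call, and in the fit to all 19 libraries 41 did.

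List counts moved most with the same 2 settings. In the fit to all 19 libraries 13 hepatocyte markers, 14 phase I enzymes, 10 phase II enzymes, 7 transporters and 15 urea cycle and amino acid genes fell, and 6 chaperones, 6 MAP kinase genes and 2 ribosomal protein genes rose. With the minimum change of 1.2-fold 10 hepatocyte markers and 10 phase I enzymes fell and 2 chaperones and 0 ribosomal protein genes rose (0 at an adjusted p below 0.05 in edgeR, against 23 with no minimum and 23 with DESeq2). Calls that ended when single libraries were left out were those of ERN1, DERL1, SDHA, MT-ND6, IFIT5, IFI44L, HSP90AA1, SOX9, COPA, SNHG15, HGF and HSPA6. Depth limits the genes near 1 CPM, where the SE of a log2 fold change was 0.18 for SYN1 and 0.43 for HSPA6, against 0.04 for PDIA4.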

Other observations

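The lists of the respiratory chain held 1 call each. Of 32 nuclear genes of the respiratory chain 1 rose (3.13%), SDHA (0.11 ± 0.04, adjusted p 0.04), and none fell. Of 13 mRNAs of the mitochondrial genome 1 rose (7.69%), MT-ND6 (0.29 ± 0.08, adjusted p 0.0198), and none fell. Over all tested genes 8.25% were higher and 8.45% lower, so the share higher of the mitochondrial list was near that of all genes. Both calls ended when single libraries were left out, SDHA in 5 and MT-ND6 in 4 of 6 such fits. Mitochondrial mRNAs made up 5.98% to 7.36% of counts after ADARB1 siRNA and 6.26% to 6.95% in siNC. Of 28 genes of glucose production, glycolysis and the insulin response 6 rose and 7 fell: G6PC1, the enzyme that releases free glucose, was at 70.4, 73.2 and 74.3 CPM after ADARB1 siRNA and 118, 125 and 91.8 CPM in siNC (-0.61 ± 0.08), the mitochondrial PEP carboxykinase PCK2 fell by 0.52 ± 0.06, and PFKFB3, which makes the activator of glycolysis, rose by 0.37 ± 0.04. Of 19 iron handling genes 3 rose and 4 fell; SLC40A1, the iron exporter ferroportin, was at 309.9, 318 and 318 CPM after ADARB1 siRNA, 271, 260.5 and 269 CPM after ADAR siRNA and 390.4, 393 and 391 CPM in siNC (-0.31 ± 0.03 against siNC, 0.24 ± 0.03 against ADAR siRNA, adjusted p 5.14e-05), and haptoglobin, HP, rose by 0.21 ± 0.04. Of 26 p53 targets 9 rose and 4 fell. GDF15, also in the ATF4 list, was among the 9 that rose (0.46 ± 0.05). Among the 4 that fell were PMAIP1 (-0.68 ± 0.10) and CCNG1 (-0.29 ± 0.04). PMAIP1 was at 2.98, 3.2 and 3.02 CPM after ADARB1 siRNA and 4.53, 4.99 and 5.26 CPM in siNC.

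Calls were not spread evenly over chromosomes or transcript lengths. Over all tested genes 8.25% were higher and 8.45% lower. On chromosome 19, 175 of 1059 tested genes were higher and 38 lower after ADARB1 siRNA, with a median log2 fold change of 0.08. On chromosome 4, 46 of 661 were higher and 95 lower, with a median of -0.04, and chromosomes 15 and 18 had the same median. Of 1328 genes whose longest transcript exceeds 8000 bases 10.4% were higher and 19.5% lower. All these counts are without the GC correction, and the part of the GC trend in them was not tested.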
